A study of Mus musculus with 24 samples.

Results

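The genes described here encode 4 subunits of the phagocyte NADPH oxidase, *Cybb*, *Cyba*, *Ncf1* and *Ncf4*. They were taken by symbol from the deposited expression tables, which list 56691 genes for each of the 2 cell types, and each of the 4 symbols matched 1 gene in both tables. RNA-seq compared wild-type and *Olfml3* knockout mouse macrophages with and without lipopolysaccharide (LPS), a bacterial cell wall glycolipid that macrophages sense through TLR4. The cells were RAW264.7, a macrophage-like line, and bone marrow-derived macrophages (BMDMs) of 8-week-old male C57BL/6 mice. Each cell type gave 4 groups of 3 libraries: wild type with PBS, *Olfml3* knockout with PBS, wild type with LPS, and *Olfml3* knockout with LPS. The LPS dose was 100 ng/mL and its time 4 h in each LPS group. The RAW264.7 knockout was made with a lentiviral guide RNA and isolated as sorted single-cell clones, and how many clones the libraries came from is not stated, whereas the knockout BMDMs came from mice edited with CRISPR-Cas9. The labels do not say whether the 3 libraries of a group are separate cultures or animals, and p-values therefore measure the spread between these libraries only.

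The phagocyte NADPH oxidase passes electrons from NADPH across a membrane to oxygen and so makes superoxide, the starting point of the oxidative burst with which phagocytes attack ingested microbes. Its membrane part, cytochrome b558, pairs the catalytic subunit gp91phox (NOX2), encoded by *Cybb*, with p22phox, encoded by *Cyba*, which stabilizes it. In resting cells the cytosolic organizer p47phox (*Ncf1*) and p40phox (*Ncf4*) are held apart from the membrane, and after stimulation they dock on the cytochrome together with a RAC GTPase. Loss of any of these subunits causes chronic granulomatous disease.

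In the deposited tables *Cybb* (ENSMUSG00000015340) spans chrX:9301491-9354010, *Cyba* (ENSMUSG00000006519) chr8:123151515-123159669 and *Ncf1* (ENSMUSG00000015950) chr5:134248907-134258479, all on the minus strand, and *Ncf4* (ENSMUSG00000071715) spans chr15:78129001-78146780 on the plus strand. The submitters' processing notes name mm10, but in the GENCODE M21 annotation of GRCm38, the assembly behind mm10, the same genes start 28854 to 726739 bases away with the same spans, so the build of the table coordinates is not settled. The exonic lengths given with the counts were 5808 bases for *Cybb*, 1039 for *Cyba*, 3663 for *Ncf1* and 2020 for *Ncf4*. *Ncf1* overlaps *Gtf2ird2*, which lies on the opposite strand and had 0.78 to 6.44 FPKM (fragments per kilobase of exon, scaled to the library total), and the sources used here do not say whether counting used strand, so reads in the shared bases cannot be told apart.

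RefSeq promoter windows on GRCm38.p6 were found for 3 of the 4 genes, without *Ncf4*. The windows of *Cybb* (chrX:9469295-9469574, minus strand) and *Cyba* (chr8:122432911-122433190, minus strand) are shown because these genes encode both subunits of the cytochrome and, on the FPKM scale, had the largest and the smallest of the responses to LPS described below. The RefSeq start used for *Cybb* lies inside the GRCm38 span of the gene in GENCODE. Each runs from 250 bases before the transcript start to 30 bases after it, and capitals mark the letters of a searched motif.
Cybb: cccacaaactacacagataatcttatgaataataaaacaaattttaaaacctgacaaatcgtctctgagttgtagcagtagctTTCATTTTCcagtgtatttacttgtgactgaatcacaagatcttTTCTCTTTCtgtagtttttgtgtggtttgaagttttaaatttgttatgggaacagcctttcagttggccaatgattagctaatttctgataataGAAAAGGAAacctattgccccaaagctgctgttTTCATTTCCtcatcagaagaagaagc
Cyba: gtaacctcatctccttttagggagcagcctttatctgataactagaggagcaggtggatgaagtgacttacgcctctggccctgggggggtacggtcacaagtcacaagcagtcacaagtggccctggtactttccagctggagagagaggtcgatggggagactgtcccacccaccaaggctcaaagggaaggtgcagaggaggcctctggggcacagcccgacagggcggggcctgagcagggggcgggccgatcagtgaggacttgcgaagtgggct
Motifs were searched on both strands: GAGGAAGT, a core bound by the macrophage factor PU.1; GGAANNGAA, a composite of an ETS and an IRF site; and GAAANNGAA, an interferon response element, where N is any base. They occur in 3.2%, 8.24% and 8.56% of 32851 RefSeq windows, which run slightly further past the start. The *Cybb* window held 1 composite match at base 5 after the start and 3 interferon response matches, at bases -167, -123 and -29, and none of them overlapped. The *Ncf1* window held 1 interferon response match at base -82, and the *Cyba* window held no match to any of the 3 motifs.

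Library totals ran from 11638273 to 22873094 counts, and the 4 genes had from 1152 counts, for *Ncf4*, to 78701 counts, for *Cybb*, so that sampling error of the counts was small. The deposited genotype tag contradicts the title and library name in 12 of 24 libraries, and titles were used. *Olfml3* itself was at 0 to 0.03 FPKM in knockout BMDMs and at 0.24 to 0.65 in wild-type BMDMs. In RAW264.7 its RNA was higher, not lower, in the libraries labelled knockout, with 0.13 to 0.29 FPKM in wild type. It was at 0.65 to 1.19 in those labelled knockout with PBS and 18.3 to 18.9 in those labelled knockout with LPS. The paper sequenced the mutations of its RAW264.7 clones, and RNA levels alone do not say whether a working protein was made. In RAW264.7, replicate 1 of the group labelled knockout with PBS stood apart: its mean correlation was 0.936 with its own group and 0.957 with wild type with PBS, and values without it are given beside the results that turn on it. The neutrophil marker *Ly6g* was at 0 in all 24 libraries. Of 10 neutrophil markers 10 stayed under 1 FPKM in RAW264.7 and 6 in BMDMs, where *Mmp8* reached 9.44 FPKM and the summed level was 10.9 to 15.7 FPKM over the 4 groups. The summed level of 7 macrophage markers was 2729 to 2945 FPKM in wild-type RAW264.7 and 829 to 1286 in the libraries labelled knockout, with *Mertk* at 0 in all 12. *Lyz2*, at 2039 to 2264 against 259 to 433 FPKM, carried most of that difference, and the markers did not all go one way: with PBS *Csf1r* was at 314 to 354.5 FPKM in those labelled knockout against 254 to 268 in wild type. The part of this difference in the results below was not tested. In BMDMs the same sum was 11847 to 17664 FPKM, with none of the 7 markers at 0. Dendritic cell, T and B cell, mast cell and eosinophil, and fibroblast lists summed to at most 1.57 FPKM in any library. In bulk RNA, fewer cells that express a gene and less RNA of it per cell cannot be told apart.

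*Cybb*, the catalytic subunit, was the most variable of the 4 genes. In RAW264.7 its level was 72.8, 70.6 and 71.5 FPKM in wild type with PBS and 62.3, 96.0 and 102 in the libraries labelled knockout with PBS. With LPS it was 268, 259 and 260 FPKM in wild type and 419, 399 and 414 in those labelled knockout. Both LPS groups lay above both PBS groups and apart from each other, while the PBS groups overlapped through replicate 1 of those labelled knockout. In BMDMs the level was 221, 229 and 218 FPKM in wild type with PBS, 185, 189 and 185 in knockout with PBS, 472, 524 and 537 in wild type with LPS, and 580, 594 and 573 in knockout with LPS. The 4 BMDM groups did not overlap, with the knockout lowest under PBS and highest under LPS.

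*Cyba*, whose product gp91phox needs for its stability, had the highest mean of the 4 transcripts per length in all PBS groups, though in replicate 3 of those labelled knockout in RAW264.7 it lay just under *Ncf1*. RAW264.7 had 271, 273 and 264.6 FPKM in wild type with PBS and 285, 162 and 149 in the libraries labelled knockout with PBS. With LPS the values were 277, 282 and 281 in wild type and 210, 210 and 221 in those labelled knockout. All 3 libraries labelled knockout with LPS lay below wild type with LPS, and under PBS 2 of 3 did, replicate 1 being the highest *Cyba* value of the line. In BMDMs the values were 405, 431 and 417 FPKM in wild type with PBS, 378, 386 and 387 in knockout with PBS, 445, 392 and 375 in wild type with LPS, and 373, 360 and 361 in knockout with LPS. Knockout BMDMs lay below wild type within each treatment, while wild type with LPS overlapped both wild type and knockout with PBS.

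*Ncf1*, the organizer that brings the cytosolic subunits to the membrane, had 150, 146 and 156 FPKM in wild-type RAW264.7 with PBS and 153, 152 and 151 in the libraries labelled knockout. With LPS these were 125, 125 and 128 and 124, 129 and 124 FPKM. The genotypes overlapped in both treatments, and the treatments did not. In BMDMs *Ncf1* was at 89.7, 92.7 and 89.5 FPKM in wild type with PBS, 85, 85.8 and 85.1 in knockout with PBS, 135, 137 and 142 in wild type with LPS and 129, 131 and 133 in knockout with LPS. Here the 4 groups did not overlap, with LPS above PBS and wild type above knockout.

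*Ncf4*, whose product binds phosphatidylinositol 3-phosphate on phagosomes, was the least abundant of the 4 per length by the mean of each of the 8 groups. It had 60.5, 65.2 and 61.9 FPKM in wild-type RAW264.7 with PBS, 76.0, 56.5 and 54.1 in those labelled knockout with PBS, 58.1, 62.1 and 60.4 in wild type with LPS and 53.8, 52.2 and 52.3 in those labelled knockout with LPS. The last group lay below the other 3, which overlapped. In BMDMs it had 32.1, 32.8 and 30.8 FPKM in wild type with PBS, 29.8, 30.7 and 32.1 in knockout with PBS, 37.0, 38.0 and 36.9 in wild type with LPS, and 53.6, 52.1 and 53.1 in knockout with LPS. The PBS groups overlapped, and knockout with LPS lay above every other BMDM library.

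**Figure D1:**
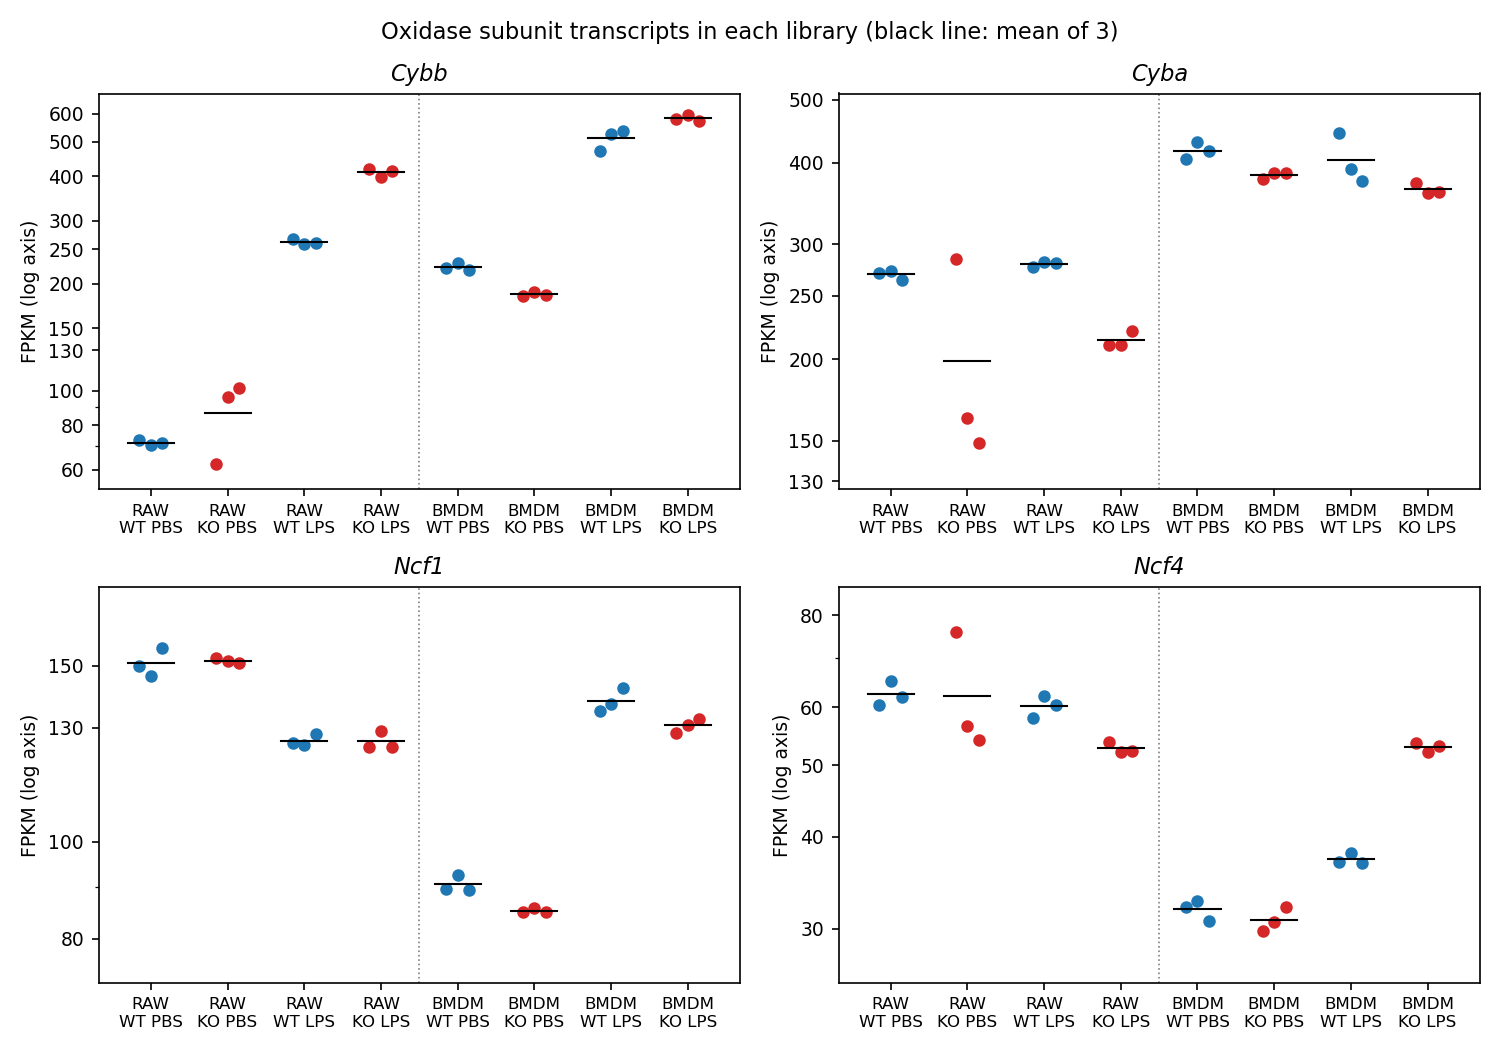
FPKM of each gene in all 24 libraries, on a log axis with its own range in each panel, with 3 points per group (blue, wild type; red, labelled knockout) and a black line at the group mean. *Cybb* ran from 62.3 to 594 FPKM with both LPS groups highest in each cell type, and 1 red RAW264.7 point with PBS stands apart for *Cybb*, *Cyba* and *Ncf4*.

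Genes were compared with limma on log2(FPKM + 0.1), and a gene is said to have risen or fallen where the Benjamini-Hochberg adjusted p over all genes tested was under 0.05 and the fold change at least 1.5. Fold changes are on the log2(FPKM + 0.1) scale. The 2 cell types come in separate tables and were not tested against each other. LPS moved the middle of all genes: over genes with a mean of at least 1 FPKM, the median log2 fold change with LPS was -0.21 in wild-type and -0.23 in labelled-knockout RAW264.7, and -0.73 in wild-type and -0.62 in knockout BMDMs. Median-ratio scaling sets that median near 0, and its values are given below where they differ in direction or call.

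LPS raised *Cybb* in both cell types and both genotypes. In wild-type RAW264.7 the log2 fold change was 1.87 ± 0.16 (SE, n = 3 against 3), or 3.65-fold, with adjusted p = 1.43e-05, and in those labelled knockout it was 2.28 ± 0.16, or 4.84-fold, with adjusted p = 2.77e-06. In BMDMs it was 1.196 ± 0.05 in wild type (2.29-fold, adjusted p = 2.93e-08) and 1.64 ± 0.05 in knockout (3.12-fold, adjusted p = 3.75e-09). *Cybb* was the 1 member of 4 that rose in RAW264.7, where 18.3% of genes changed with LPS in wild type (5.8% higher, 12.5% lower) and 22.1% in those labelled knockout (7.45% higher, 14.6% lower). The rise was larger with median-ratio scaling in all 4 comparisons, from 2.00 to 2.54.

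*Cyba* did not pass the test with LPS in any group. The log2 fold change was 0.05 (95% CI, -0.40 to 0.50) in wild-type and 0.17 (-0.28 to 0.62) in labelled-knockout RAW264.7, and -0.05 (-0.19 to 0.09) in wild-type and -0.07 (-0.22 to 0.07) in knockout BMDMs. The BMDM values turned to 0.75 and 0.62, past the threshold, with median-ratio scaling, so that against the middle of all genes *Cyba* was higher with LPS. Without replicate 1 of those labelled knockout with PBS, the RAW264.7 value in those labelled knockout was 0.46 (adjusted p = 2.45e-04), under 1.5-fold, where 21.8% of genes were called.

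For the cytosolic subunits the calls with LPS were not the same in the 2 cell types, a difference that was not tested. *Ncf1* rose in BMDMs, by 0.61 ± 0.04 in wild type (1.52-fold, adjusted p = 4.99e-07) and 0.61 ± 0.04 in knockout (1.53-fold, adjusted p = 5.40e-07), just past the threshold of 1.5. With TPM it was 0.57 and 0.58, short of 1.5-fold, and with median-ratio scaling 1.41 and 1.31. In RAW264.7 *Ncf1* was lower with LPS by a log2 fold change of -0.26 (adjusted p = 0.0130) in wild type and -0.27 (adjusted p = 0.00900) in those labelled knockout, under 1.5-fold and close to the shift of all genes, and median-ratio scaling left -0.02 and -0.00. *Ncf4* rose in knockout BMDMs, by 0.78 ± 0.05 (1.71-fold, adjusted p = 2.31e-07), and in wild-type BMDMs its log2 fold change of 0.23 ± 0.05 (adjusted p = 0.00195) stayed under 1.5-fold. Median-ratio scaling gave 1.47 in knockout and 1.03 in wild type, the latter now past the threshold. In RAW264.7 it was -0.06 (95% CI, -0.32 to 0.21) in wild type and -0.22 (-0.49 to 0.05) in those labelled knockout, and the latter was -0.07 without replicate 1 of those labelled knockout with PBS. In BMDMs 2 of 4 members rose with LPS in wild type and 3 of 4 in knockout, where 40.4% and 38.9% of all genes changed, 7.94% and 8.02% rose, and 32.5% and 30.9% fell.

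Without LPS, none of the 4 genes differed by the test between genotypes in RAW264.7, where 8.55% of genes did (4.79% higher, 3.77% lower). *Cybb* had a log2 fold change of 0.24 ± 0.16 (adjusted p = 0.366) and *Cyba* one of -0.50 ± 0.20 (adjusted p = 0.126), while *Ncf1* was at 0.01 and *Ncf4* at -0.02. With TPM *Cybb* was at 0.43 and *Cyba* at -0.31, neither called. Replicate 1 of those labelled knockout decided these values. Without it *Cyba* fell by 0.80 on the log2 scale (adjusted p = 1.37e-05), 1 of 4 members called where 20.8% of genes were, *Cybb* had 0.46 ± 0.05 (adjusted p = 1.70e-04), under 1.5-fold, and *Ncf4* had -0.18 (adjusted p = 0.0455), also under 1.5-fold. In BMDMs with PBS, none of the 4 was called, against 1.82% of genes. *Cybb* was lower in knockout by a log2 fold change of -0.26 ± 0.05 (adjusted p = 0.0314), 0.838-fold, and the other 3 lay between -0.12 and -0.05 with adjusted p from 0.377 to 0.709. The adjusted p of *Cybb* ran up to 0.110 when single libraries were left out.

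With LPS, *Cybb* was higher in the RAW264.7 libraries labelled knockout than in wild type, by 0.65 ± 0.16 on the log2 scale (1.57-fold, adjusted p = 0.0163), the only member of 4 past the test where 17.3% of genes were (9.73% higher, 7.6% lower). The 95% CI ran from 0.29 to 1.00. Without replicate 1 of those labelled knockout with PBS, which enters the estimate of the spread, adjusted p was 1.41e-05, with 19.2% of genes called, and without replicate 1 of those labelled knockout with LPS it was 0.0502 at a log2 fold change of 0.63. *Cyba* had -0.39 ± 0.20 (adjusted p = 0.206) and *Ncf4* -0.19 ± 0.12 (adjusted p = 0.318), and without the same PBS library their adjusted p was 3.84e-04 and 0.0205, both under 1.5-fold. With TPM *Cyba* was at -0.15. *Ncf1* had 0.00 (95% CI, -0.14 to 0.14).

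In BMDMs with LPS, 0 of 4 members passed both criteria, against 4.76% of genes (3.23% higher, 1.53% lower). *Ncf4* came closest, higher in knockout by 0.51 ± 0.05 on the log2 scale (1.42-fold, adjusted p = 1.07e-04), and median-ratio scaling gave 0.35 (adjusted p = 8.26e-04). *Cybb* was higher in knockout by 0.19 ± 0.05 (1.14-fold, adjusted p = 0.0395), near the median of 0.14 over genes of at least 1 FPKM, and median-ratio scaling left 0.03 (adjusted p = 0.812). *Cyba* had -0.14 (95% CI, -0.29 to -0.00) and *Ncf1* -0.08 (-0.17 to 0.01), with adjusted p of 0.176 and 0.255. Median-ratio scaling gave -0.30 and -0.24 (adjusted p = 0.0104 and 0.00413), again under 1.5-fold.

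The interaction asked whether the response to LPS differed between genotypes. None of the 4 members was called in either cell type, against 1.95% of genes in RAW264.7 (1.04% lower) and 2.93% in BMDMs (1.02% lower). In BMDMs *Ncf4* responded more in knockout by 0.55 ± 0.07 on the log2 scale (1.47-fold, adjusted p = 0.00132) and *Cybb* by 0.45 ± 0.08 (1.36-fold, adjusted p = 0.00954), both short of 1.5-fold. Median-ratio scaling left 0.44 (adjusted p = 0.00442) and 0.33 (adjusted p = 0.0433). *Cyba* was at -0.02 and *Ncf1* at 0.01 there. In RAW264.7 the interaction was 0.41 ± 0.22 for *Cybb* (adjusted p = 0.615), 0.12 for *Cyba*, -0.01 for *Ncf1* and -0.17 for *Ncf4*. Without replicate 1 of those labelled knockout with PBS, where 3.41% of genes were called, it was 0.18 for *Cybb* (adjusted p = 0.224), 0.41 for *Cyba* (adjusted p = 0.0199), under 1.5-fold, and -0.01 for *Ncf4*.

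**Figure D2:**
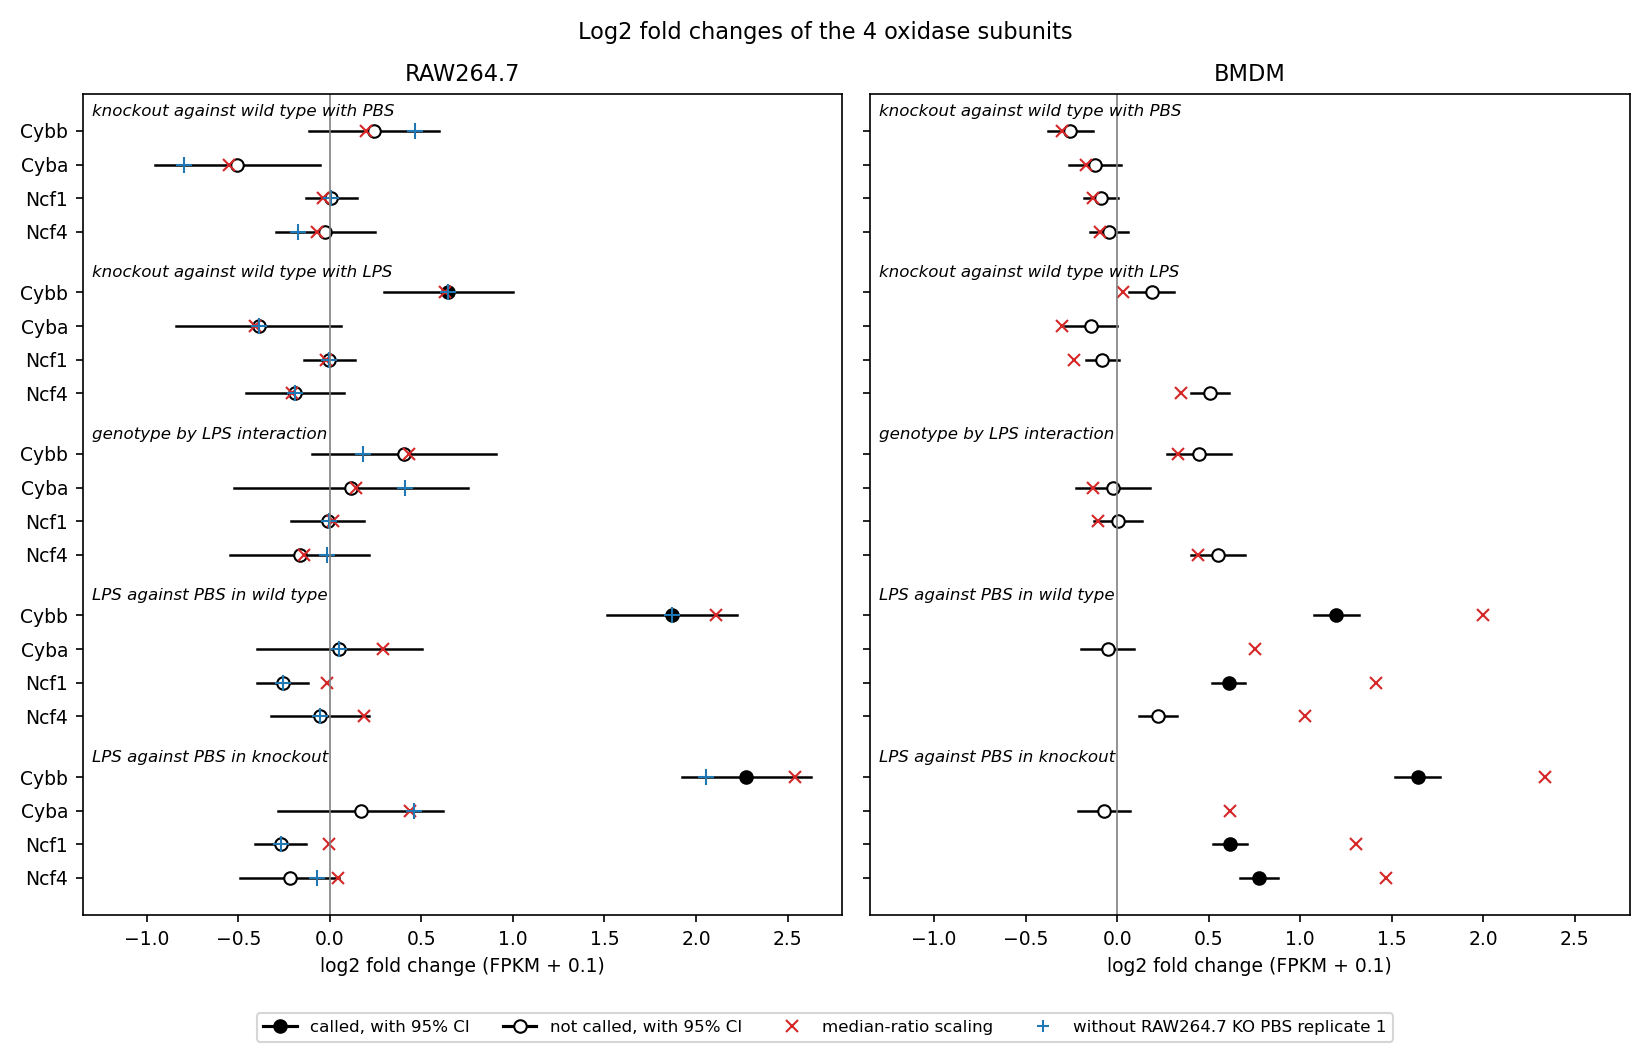
Log2 fold changes of the 4 genes in 5 comparisons per cell type, with 95% confidence intervals, filled where called; red crosses give median-ratio scaling and blue plus signs RAW264.7 without 1 library. *Cybb* with LPS is filled in all 4 LPS comparisons, and the crosses of the BMDM LPS comparisons all lie to the right of the points.

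Ratios of 2 transcripts within a library do not depend on library scaling. They were chosen after the values had been seen, and an exact permutation test of 3 libraries against 3 cannot give a two-sided p below 0.1. *Cybb* stood at 0.266 ± 0.0063 of *Cyba* (SD, n = 3) in wild-type RAW264.7 with PBS, 0.498 ± 0.246 in those labelled knockout with PBS, 0.937 ± 0.026 in wild type with LPS and 1.92 ± 0.06 in those labelled knockout with LPS. With LPS the ratio was therefore 2.05-fold higher in those labelled knockout, with all 3 libraries above wild type (p = 0.1, exact permutation test), while with PBS replicate 1 lay at 0.219, below wild type. In BMDMs the ratio was 0.533 ± 0.011 in wild type and 0.486 ± 0.0060 in knockout with PBS, and 1.28 ± 0.19 and 1.60 ± 0.05 with LPS. Knockout lay apart from wild type in each treatment, 0.912-fold with PBS and 1.26-fold with LPS (p = 0.1 each, exact permutation test).

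*Ncf4* relative to *Ncf1*, the p40phox and p47phox transcripts, ran between 0.344 and 0.378 in BMDMs with PBS in both genotypes. With LPS it was 0.270 ± 0.010 (SD, n = 3) in wild type and 0.405 ± 0.011 in knockout. The wild-type ratio with LPS was below, and the knockout ratio above, every PBS library of its genotype, a 1.502-fold difference between genotypes (p = 0.1, exact permutation test). In RAW264.7 the ratio was 0.415 ± 0.027 in wild type with PBS, 0.410 ± 0.076 in those labelled knockout with PBS, 0.477 ± 0.018 in wild type with LPS and 0.419 ± 0.014 in those labelled knockout with LPS, where those labelled knockout lay below wild type.

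**Figure D3:**
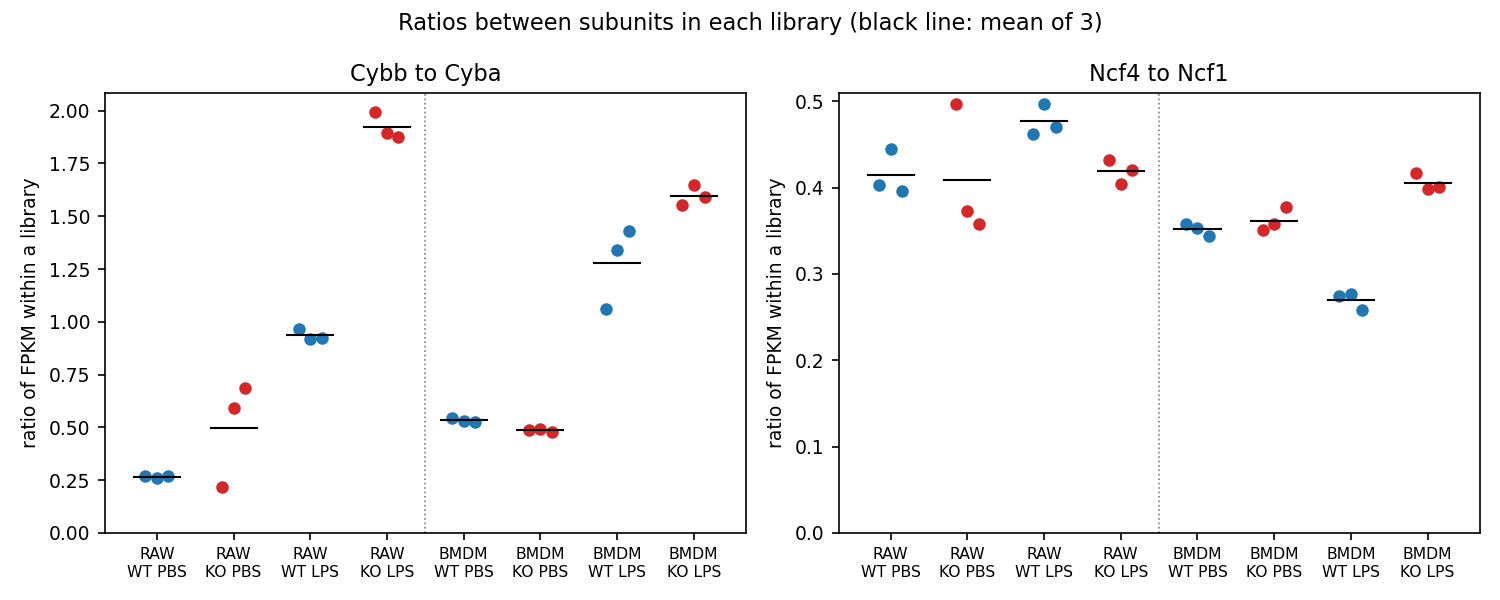
Ratio of FPKM of *Cybb* to *Cyba* (left) and of *Ncf4* to *Ncf1* (right) in each library, from an axis start of 0, with a black line at the mean of 3. The *Cybb* to *Cyba* ratio passes 1 in every LPS library but the 3 of wild-type RAW264.7, and the *Ncf4* to *Ncf1* ratio of BMDMs with LPS separates wild type, up to 0.277, from knockout, from 0.398.

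The other parts of the oxidase were followed as lists, of which genes called in a genotype comparison are named. Of 6 partners and assembly factors (*Rac1*, *Rac2*, *Cybc1*, *Rap1a*, *Hvcn1* and *Nrros*), 0 were called between genotypes in RAW264.7 with PBS or with LPS, and 0 in BMDMs with PBS, where 8.55%, 17.3% and 1.82% of all genes were. In RAW264.7 the 6 had a median of -0.06 under PBS and -0.40 under LPS, beside 0.02 and 0.00 over all genes tested. Under LPS *Rap1a* (-0.49), *Rac1* (-0.45), *Cybc1* (-0.41), *Rac2* (-0.39) and *Nrros* (-0.32) were lower in those labelled knockout, and *Hvcn1* was at 0.01. Adjusted p of the lower genes ran from 0.00259 to 0.0241, all under 1.5-fold. TPM moved the median of that comparison over genes of at least 1 FPKM from -0.02 to 0.21. In BMDMs with LPS, *Hvcn1*, the voltage-gated proton channel that balances the charge the oxidase moves, was at 12.2, 12.8 and 12.7 FPKM in wild type and 21.4, 22.8 and 21.2 in knockout. *Hvcn1* was thus higher in knockout by 0.79 ± 0.05 (1.73-fold, adjusted p = 1.99e-05), the 1 of 6 called where 4.76% of all genes were. The 6 had a median of 0.08 beside 0.04 over all genes. In RAW264.7 *Hvcn1* had at most 7 counts in any library.

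With LPS against PBS, 0 of the 6 partners were called in wild-type RAW264.7, 3 fell in those labelled knockout, 3 fell in wild-type BMDMs, and 3 fell and 1 rose in knockout BMDMs. Over all genes 12.5%, 14.6%, 32.5% and 30.9% fell in these comparisons. These counts followed the shift of all genes: with median-ratio scaling 0 were called in those labelled knockout, 1 in wild-type BMDMs and 2 in knockout BMDMs, and each of those BMDM genes was higher. In those labelled knockout the partners that fell were *Rac1*, *Cybc1* and *Rap1a*, and without replicate 1 of those with PBS *Rac1* was at -0.53, short of 1.5-fold, which left 2. In BMDMs they were *Cybc1*, *Rap1a* and *Nrros*, and the one that rose was *Rac2*, a RAC GTPase of blood cells, all named after their values were seen. With median-ratio scaling *Cybc1* and *Rap1a* lay between -0.02 and 0.10 in BMDMs, where *Rac2* was at 1.14 in wild type and 1.32 in knockout.

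Of 9 genes of other NADPH oxidases, 4 were tested in RAW264.7 and 8 in BMDMs. *Nox1*, a catalytic subunit best known from colon epithelium, had 9, 11 and 12 counts in RAW264.7 labelled knockout with PBS against 4, 6 and 2 in wild type. It was called higher by 0.76 on the log2 scale (adjusted p = 0.0239), as 1 of 4 tested, where 8.55% of all genes were called. The call was lost with a pseudocount of 1, with DESeq2, and without replicate 1 or 3 of wild type or replicate 2 or 3 of those labelled knockout. With LPS it rose in both cell types and genotypes, from at most 0.25 to 0.61 to 1.2 FPKM in RAW264.7 and from at most 0.12 to 1.90 to 2.91 FPKM in BMDMs. No gene of this list was called between genotypes with LPS, where 17.3% of all genes were in RAW264.7 and 4.76% in BMDMs. With TPM 1 was called in RAW264.7, and with median-ratio scaling 1 was in BMDMs.

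Among 14 kinases, exchange factors, RAC inhibitors and lipid enzymes that act on the oxidase, 2 rose and 1 fell in those labelled knockout with PBS in RAW264.7, and 2 rose and 2 fell with LPS, where 8.55% and 17.3% of all genes were called. Without replicate 1 of those labelled knockout, 5 of the 14 were called with PBS, beside 20.8% of all genes. *Prex1*, a RAC exchange factor, rose by 0.91 with PBS and 1.38 with LPS (adjusted p = 0.00667 and 3.72e-04). *Prkca*, a protein kinase C, rose by 0.63 and 1.30 (adjusted p = 0.0311 and 4.55e-04), from 1.03 FPKM in wild type with PBS and 0.977 with LPS. *Tiam1*, another RAC exchange factor, had -1.05 and -2.07 (adjusted p = 0.00860 and 9.84e-05). *Arhgdib*, which holds RAC in the cytosol, had -0.84 with LPS (adjusted p = 0.00198). In BMDMs none of the 14 passed the test between genotypes (1 did with LPS under median-ratio scaling), and the median was 0.00 with PBS and 0.12 with LPS beside 0.01 and 0.04 over all genes.

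Of 6 transcription factors described for the *Cybb* promoter, 4 were tested in RAW264.7 and 6 in BMDMs, and 1 was called with LPS in each, where 17.3% and 4.76% of all genes were. In RAW264.7 *Irf1*, an interferon regulatory factor, was at 24.4, 25.6 and 25.6 FPKM in wild type with LPS and 15.7, 13.5 and 14.97 in those labelled knockout, a log2 fold change of -0.77 ± 0.10 (adjusted p = 5.39e-04), and with TPM -0.54, short of 1.5-fold. Its interaction was -1.15 ± 0.13 (adjusted p = 0.00214). In BMDMs *Irf8*, a partner of PU.1 in myeloid cells, was at 178, 165 and 169 FPKM in wild type with LPS and 42.5, 37.5 and 40.4 in knockout. With LPS it was lower in knockout than in wild type by 2.09 ± 0.06 on the log2 scale (adjusted p = 2.26e-07), with an interaction of -1.83 ± 0.08 (adjusted p = 4.37e-06). Its means with PBS were 32.7 FPKM in wild type and 27.3 in knockout, below those with LPS in both genotypes. *Cybb* had 573 to 594 FPKM in the same knockout libraries with LPS, and a link between *Irf8* and *Cybb* was not tested.

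**Figure D4:**
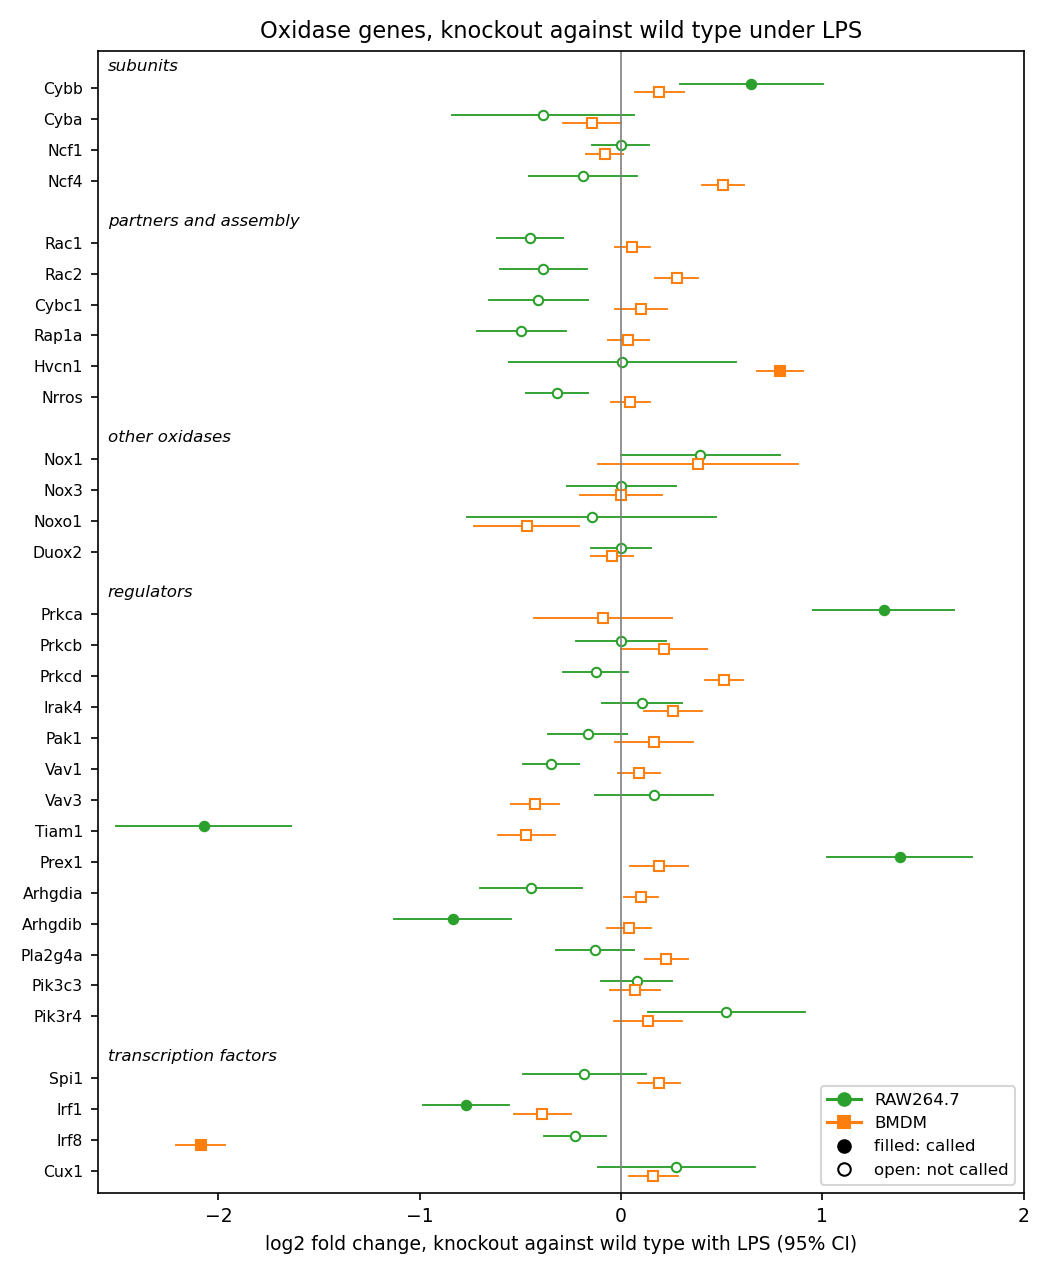
Log2 fold change of labelled knockout against wild type with LPS for the 32 listed genes tested in both cell types, with 95% confidence intervals (green circles, RAW264.7; orange squares, BMDM; filled where called). *Cybb*, *Prkca* and *Prex1* are filled to the right and *Tiam1*, *Arhgdib* and *Irf1* to the left in RAW264.7, and *Hvcn1* and *Irf8* are the filled squares of BMDMs.

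Genes with the pattern most like each member over the 8 groups were sought among 9471 genes, by the root mean square difference of log2 group means centred within each cell type. For *Cybb*, whose own means spread by 0.908, these were *Osgin2* (0.114), *6530402F18Rik* (0.165) and *Stx6* (0.179), a syntaxin of the trans-Golgi network. *Osgin2* went from 4.97 to 20.1 FPKM with LPS in wild-type RAW264.7 and from 5.69 to 29.3 in those labelled knockout, and from 4.17 to 9.61 and 4.48 to 11.7 FPKM in BMDMs. The closest to *Cyba* were *Polr2k* (0.0468), a shared RNA polymerase subunit, *Maip1* (0.0537) and *Ap3s1* (0.0599), an adaptor subunit. The closest to *Ncf1* were *Nono* (0.0638), *Cnep1r1* (0.0655) and *Tfg* (0.0708), and to *Ncf4* *Rnf149* (0.0927), *Tmem63b* (0.0996) and *Slc23a2* (0.114), a vitamin C transporter. *Cyba*, *Ncf1* and *Ncf4* spread by only 0.172 to 0.237, so that many genes with little variation lie near them.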

How the data were processed

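Poly(A) RNA of 24 libraries was read as pairs of 150 bases. The authors deposited whole-number counts and FPKM per gene in 1 table per cell type, and the FPKM were recomputed from counts, exonic length and library total to within 1% (99.9% of RAW264.7 and 99.5% of BMDM values with counts over 50). Aligner and counter: not given in the sources used here. limma 3.58.1 under R 4.3.3 fitted 4 group means per cell type on log2(FPKM + 0.1), without an intensity trend, with Benjamini-Hochberg adjustment over all genes above 0 FPKM in at least 1 library (26740 in RAW264.7 and 26973 in BMDMs), and all 4 members passed that filter in both. Exact permutation tests used SciPy 1.17.1. Alternatives were edgeR 4.0.16 and DESeq2 1.42.0 on counts, TPM, median-ratio scaling, other filters and pseudocounts, the replicate block and each library left out. On simulated data for knockout against wild type with LPS, limma recovered 91% of 200 changed genes among 25607 genes of RAW264.7, with 16 false calls. It recovered 86.5% among 25887 genes of BMDMs, with 10. edgeR recovered 100% and 99.5%, with 2 and 1 false calls, and DESeq2 99% and 97.5%, with 0 in each. The simulation gave all genes the same variability between replicates and changed only well-counted genes. It held no outlying library like replicate 1 of RAW264.7 labelled knockout with PBS. Its rates therefore need not hold for the fits reported here. The named genes were the 4 members, listed genes called between genotypes, up to 4 per list and comparison, the 3 genes most like each member among genes of at least 1 FPKM in both cell types, and *Olfml3*. The members and lists were chosen with earlier results of these data known. One gene is not reported here.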

Additional observations from a re-analysis of the deposited data

Results flagged for a closer look

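In BMDMs the limma interaction of genotype and LPS had an adjusted p under 0.05 for *Cybb* (0.45 on the log2 scale, adjusted p = 0.00954) and for *Ncf4* (0.55, adjusted p = 0.00132), both short of 1.5-fold and so not called, where 2.93% of genes were. With median-ratio scaling they were 0.33 (adjusted p = 0.0433) and 0.44 (adjusted p = 0.00442).

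*Ncf1* had log2 fold changes of opposite sign with LPS in the cell types, higher in BMDMs than in RAW264.7 by 0.87 in wild type and 0.88 between knockout BMDMs and the RAW264.7 libraries labelled knockout. In RAW264.7 they were near the shift of all genes, and median-ratio scaling left -0.02 and -0.00. *Ncf4* had opposite signs between genotypes with LPS, where the log2 fold change was 0.69 higher in BMDMs, and with LPS against PBS in knockout BMDMs and RAW264.7 labelled knockout, where it was 1.00 higher. The sign in RAW264.7 turned with the scaling: the first was 0.044 there with TPM, and the second 0.046 with median-ratio scaling and -0.07 without replicate 1 of those labelled knockout with PBS. These 4 differences between cell types were not tested, since the tables were normalized separately.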

How the results depend on the processing

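Of 800 values of the 4 genes under alternatives, 747 kept direction and side of the threshold, 45 changed sign, 5 passed and 3 missed the threshold. None of the reversed values had an adjusted p under 0.05 as reported above, and 8 had one under the alternative, all of them *Cyba* with LPS in BMDMs. There, median-ratio scaling, edgeR, edgeR without a filter and DESeq2 gave 0.75, 0.72, 0.66 and 0.76 in wild type and 0.62, 0.60, 0.54 and 0.62 in knockout. The same 4 fits took *Ncf4* with LPS in wild-type BMDMs past the threshold, at 1.03, 1.00, 0.94 and 1.03, and TPM took *Ncf1* with LPS in BMDMs below it, at 0.57 and 0.58. In RAW264.7 the same 4 fits turned *Ncf1* between genotypes with PBS to -0.036, -0.031, -0.042 and -0.037 and *Ncf4* with LPS in wild type to 0.18, 0.17, 0.16 and 0.18, and median-ratio scaling and DESeq2 turned *Ncf4* with LPS in those labelled knockout to 0.046 and 0.030. TPM gave 0.17 for *Ncf4* with PBS and 0.23 for *Ncf1* and 0.044 for *Ncf4* with LPS between genotypes. The *Ncf1* interaction became 0.016, 0.032, 0.0020 and 0.016 with median-ratio scaling, TPM, edgeR and DESeq2 in RAW264.7 and -0.10, -0.096, -0.094 and -0.11 in BMDMs with median-ratio scaling, edgeR, edgeR without a filter and DESeq2. Leaving out single libraries in RAW264.7 gave -0.80 to -0.33 for *Cyba*, -0.013 to 0.035 for *Ncf1* and -0.18 to 0.069 for *Ncf4* between genotypes with PBS, 0.63 to 0.67 for *Cybb* and -0.019 to 0.0095 for *Ncf1* with LPS, -0.061 to 0.41 for *Cyba* and -0.037 to 0.010 for *Ncf1* in the interaction, and -0.0088 to 0.46 for *Cyba* with LPS in those labelled knockout. In the BMDM interaction it gave -0.073 to 0.049 for *Cyba* and -0.011 to 0.028 for *Ncf1*. The cause was not tested.

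The replicate block kept direction and side of the threshold for 40 of 40 member results (*Cybb* between genotypes with LPS in RAW264.7 at 0.65). Of the same-numbered libraries, 0 of 18 pairs per cell type had correlated deviations over 0.1 (-0.04 to 0.08 in RAW264.7 and -0.06 to 0.07 in BMDMs). Such low values cannot show whether these libraries were prepared together, which was not tested. In knockout BMDMs replicate 3 had the lowest total in both treatments, at 17746364 counts with PBS and 17121240 with LPS.

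Across all genes, a pseudocount of 1 took the calls between genotypes from 2287 to 1474 with PBS and 4635 to 3054 with LPS in RAW264.7, and from 490 to 256, 1285 to 439 and, for the interaction, 789 to 402 in BMDMs. Leaving out single libraries gave 1288 to 5523 calls in RAW264.7 with PBS, the highest without replicate 1 of those labelled knockout, which also took the interaction from 521 to 904. Median-ratio scaling took the share of LPS calls that were higher from 31.7% to 49.7% and 33.8% to 51.7% in wild-type and labelled-knockout RAW264.7 and from 19.6% to 48% and 20.6% to 46.8% in BMDMs, and between BMDM genotypes from 67.9% to 43.3% with LPS and 65.1% to 46.8% in the interaction. TPM took it from 56% to 72.5% with PBS and 56.1% to 75.8% with LPS between RAW264.7 genotypes.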
